A study of Mus musculus with 12 samples.

Results

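The 10 genes described here are Nfe2l2, which encodes the transcription factor NRF2, and 9 genes of antioxidant defence and NADPH supply: Nqo1, Hmox1, Gclc, Gclm, Srxn1, Txnrd1, Gsr, G6pdx and Pgd. They were chosen by name, as 10 of the 24906 genes listed in each of 2 expression tables, and all 10 were measured in every library. NRF2 is held in the cytoplasm and marked for degradation by KEAP1. Oxidants and electrophiles modify KEAP1, after which NRF2 accumulates, pairs with small MAF proteins and binds antioxidant response elements in front of genes that make and recycle glutathione and thioredoxin, detoxify quinones and heme, and supply the NADPH these reactions consume. In the intestine the programme protects epithelial cells from reactive compounds of food, bacteria and inflammation, and it is frequently raised in tumors.

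The 12 RNA-Seq libraries came from small intestine tumor organoids, which are epithelial cell clusters in culture, of mice with Smad4 f/f, BRAFV600E/+ and Villin-CreERT2. The Villin promoter drives Cre in the intestinal epithelium, and by their genotype labels the organoids of every group lacked SMAD4, carried the activated BRAFV600E allele and carried the vector pINDUCER-SMAD4, from which doxycycline (dox) switches SMAD4 back on. The number in each title was taken as an organoid line. Organoids were kept either in BME R1, a basement membrane gel, or on tissue culture plastic, and dox was given at 4 µg/mL for 48 h. The BME R1 set held lines 682, 700 and 889 untreated, lines 700 and 889 with dox, and line 682 a second time. The labels of that last library give dox at 4 µg/mL with the word mock in brackets, and its title reads as dox, so whether it received dox could not be settled from the labels. The study's methods use mock for a control plasmid given in place of the vector, so this library may also lack the vector, although its genotype label names it. It is called the mock library and was counted with the controls, as the study's own numbers of vehicle and dox libraries imply, which gave 2 dox and 4 control libraries. The plastic set held lines 560, 700 and 889, each untreated and with dox, which gave 3 libraries per arm. All cultures had been selected with puromycin and grown in a medium with Noggin and N-acetyl-L-cysteine, which is itself an antioxidant and a cysteine source, so no group shows these genes without it.

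Levels are in FPKM, fragments scaled to transcript length and library size, which can be compared between genes. Changes are differences of log2(FPKM + 1), dox minus control, which understate the change of low genes. The steps between the lowest FPKM values imply depths of 13860363 to 17099226 reads per library in BME R1 and 16694036 to 22000200 reads on plastic, which are estimates. The 10 genes rested on 395 to 16274 estimated reads per library, apart from Nqo1, which had as few as 4. Epithelial markers were abundant, with all 7 of the listed genes expressed and a summed level of 3892 to 17190 FPKM per library. The 7 fibroblast markers summed to at most 5.45 FPKM and the 4 endothelial markers to at most 1.03 FPKM. Smad4, the gene switched on by the vector, read 6.53 and 6.23 FPKM in the untreated libraries of lines 700 and 889 in BME R1 and 17.2 and 27.3 FPKM with dox. The mock library of line 682 read 10.3 FPKM against 8.88 FPKM in its untreated partner. On plastic Smad4 read 1.54, 2.99 and 4.76 FPKM in untreated lines 560, 700 and 889, and 73.6, 18.1 and 48.9 FPKM with dox.

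Among the 10 genes the clearest difference was that of G6pdx, which encodes glucose-6-phosphate dehydrogenase, the enzyme that opens the pentose phosphate pathway and makes its first NADPH. On plastic its level was 178 ± 13.1 FPKM without dox and 92.9 ± 7.51 FPKM with dox (SD, n = 3 each), a difference of 46.9 to 48.9% in every line. In BME R1 the level was 92.4 ± 4.79 FPKM in the controls (n = 4) and 93.6 ± 7.61 FPKM with dox (n = 2). The antioxidant genes had changes of both signs, and on plastic those of Hmox1, Gclc and Gsr differed widely between lines, whereas those of Srxn1 were 0.34 to 0.51 in all 3. No member passed the test in either culture or in the comparison of the cultures: the call asked for a limma p, adjusted by Benjamini-Hochberg over all genes tested, under 0.05 and a change over 1. Smad4, switched on by the vector, was not called either. Its limma change was 1.36 in BME R1 and 3.42 on plastic (adjusted p = 0.959 and 0.162). An absent call therefore does not show that a gene was unchanged. The background was 0.0231% of 12996 genes called in BME R1, 0.0324% of 12333 on plastic and 0.0% of 11977 for the difference between the cultures. The study's own DESeq2 analysis, with the same cut-offs for change and adjusted p, reported far more genes in each culture. The few calls here are thus no measure of how many genes responded to SMAD4.

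**Figure D1:**
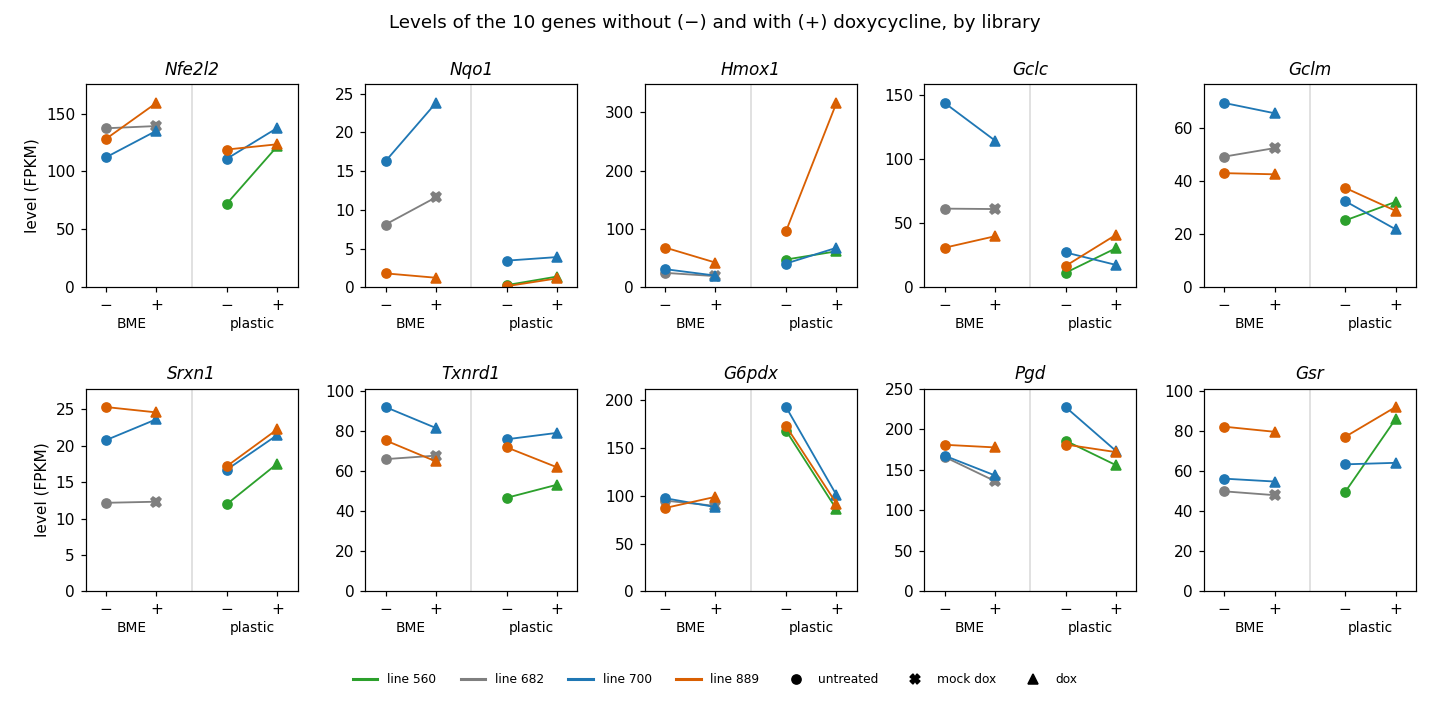
Level in FPKM (vertical axis, from 0) of each of the 10 genes in all 12 libraries without (−) and with (+) doxycycline, in BME R1 on the left and on plastic on the right of each panel. Each line joins the libraries of 1 organoid line, and crosses mark the mock library. G6pdx goes from 168, 193 and 173 FPKM to 86.0, 101 and 92.0 FPKM on plastic, and stays between 87.3 and 99.0 FPKM in BME R1.

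The promoter windows of these genes were searched for the letters of an antioxidant response element close to the gene's start. Windows from RefSeq (build GRCm38.p6, 250 bases before to 50 after a gene's start) matched 7 of the 10 genes, and Hmox1, Gclc and Gsr had none. The element's core was searched as TGACNNNGC on both strands, and the letters stood in 12.4% of all 32851 windows. The 7 genes had 10 windows, with 3 for Txnrd1 and 2 for Pgd, and 6 of the 10 held the letters, 1 each for Nfe2l2, Gclm, Srxn1, Txnrd1, G6pdx and Pgd. The matches of Srxn1 and Pgd began after the start, at positions 29 and 4, and the other window of Pgd held none. The window of Nqo1 held no match. Elements more than 250 bases before a start lay outside this search, so a window without the letters does not show that a gene lacks an element. Stretches of 4 genes are shown, 5′ to 3′ along the gene, because they include the gene of NRF2, a subunit of glutathione synthesis, the thioredoxin reductase and the gene with the clearest difference; capitals mark the match, which is a description of letters and not a bound site.
Nfe2l2 (chr2:75704855-75704913, minus strand): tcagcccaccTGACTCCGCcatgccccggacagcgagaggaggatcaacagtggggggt
Gclm (chr3:122245383-122245471, plus strand): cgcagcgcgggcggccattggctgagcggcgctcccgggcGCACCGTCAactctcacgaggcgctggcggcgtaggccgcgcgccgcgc
Txnrd1 (chr10:82859074-82859162, plus strand): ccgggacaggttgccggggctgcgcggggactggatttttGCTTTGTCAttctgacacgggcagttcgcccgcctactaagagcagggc
G6pdx (chrX:74428889-74428977, minus strand): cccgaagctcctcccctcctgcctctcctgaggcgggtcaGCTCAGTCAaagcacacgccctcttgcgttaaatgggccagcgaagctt
Counted from the gene's start, the match in G6pdx began at position −57 and that in Gclm at −134, both on the opposite strand. Srxn1 also held the AP-1 letters TGANTCA at 2 places, beginning at −102 and −45, a motif present in 7.81% of windows. The letters at −45 run on as TGAGTCAGC, which differs from the searched core TGACNNNGC at 1 base. The SMAD palindrome GTCTAGAC, found in 0.213% of windows, was in none of the members' windows.

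Without regard to dox, the members spanned a wide range of levels, and the order can be read within each table. In BME R1 Pgd had the highest mean over the 6 libraries, 162 ± 18.3 FPKM, and Nfe2l2 followed at 135 ± 15.3 FPKM. G6pdx averaged 92.8 ± 5.07 FPKM, the smallest spread for its level. Gclc, at 75.3 ± 44.5 FPKM, and Txnrd1, at 74.7 ± 10.7 FPKM, could not be ordered, since Gclc was above Txnrd1 in 2 of 6 libraries. Gsr averaged 61.9 FPKM and Gclm 53.6 FPKM, also without a clear order, with Gsr above in 3 of 6 libraries. Hmox1 averaged 34.2 FPKM, Srxn1 19.8 FPKM and Nqo1 10.5 FPKM.

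On plastic the top was again Pgd at 183 ± 24.3 FPKM, above G6pdx, the next member, in 6 of 6 libraries. G6pdx at 136 ± 47.6 FPKM and Nfe2l2 at 114 ± 22.3 FPKM overlapped, with G6pdx above in 3 of 6 libraries, the spread of G6pdx being that between its arms. Gclc and Srxn1 overlapped too, at 24.0 and 17.9 FPKM, and Nqo1 was lowest at 1.71 FPKM. Levels were not tested between BME R1 and plastic, because the tables were normalized separately.

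Organoid lines differed strongly in some of these genes before any treatment. Among the 3 untreated BME R1 libraries the largest range between lines was that of Nqo1, 2.63 on the log2 scale, and Gclc followed with 2.19. The range between untreated lines exceeded the largest dox change of a same-line pair for 7 of the 10 genes in BME R1 and for 3 of 10 on plastic. G6pdx had the narrowest ranges of the members on plastic, 0.20, and one of the narrowest in BME R1, 0.16, beside 0.12 for Pgd.

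Nfe2l2 itself, the gene of the regulator (NCBIM37 chromosome 2, 75513570 to 75542698, minus strand), was expressed at a high level in every library. The BME R1 levels were 112 FPKM in line 700 and 128 FPKM in line 889 without dox, 135 and 159 FPKM with dox, and 137 FPKM untreated and 139 FPKM mock-treated in line 682. On plastic it read 72.3, 111 and 119 FPKM in untreated lines 560, 700 and 889 and 122, 138 and 123 FPKM with dox. It was thus higher with dox in both dox pairs in BME R1, where 27.2% of genes were higher in every pair, and in all 3 on plastic, where 18.6% were. The arms overlapped in BME R1 because of line 682, and on plastic the lowest dox library lay just above the highest untreated one. The limma change was 0.19 ± 0.15 (SE) in BME R1 and 0.37 ± 0.24 on plastic, with adjusted p = 0.959 and 0.755, and the largest pair change was that of line 560.

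The quinone reductase gene Nqo1, a widely used readout of NRF2 activity, was the lowest and most line-dependent member. In BME R1 lines 700 and 889 read 16.3 and 1.79 FPKM without dox and 23.8 and 1.22 FPKM with dox, while line 682 read 8.10 FPKM untreated and 11.6 FPKM mock-treated. The line thus mattered more than the treatment, and the mock pair differed by 0.47 on the log2 scale, close to the 0.52 of the dox pair of line 700. On plastic the untreated levels were 0.269, 3.43 and 0.133 FPKM in lines 560, 700 and 889, and the dox levels were 1.37, 3.89 and 1.14 FPKM. The values of lines 560 and 889 were low counts, from 8 to 41 and from 4 to 26 estimated reads. The dox library was higher in all 3 plastic pairs, the arms overlapped, and the limma change was 0.65 ± 0.60 (adjusted p = 0.833). The size depended on how low values were treated: it was 1.53 ± 1.08 with a pseudocount of 0.1 and 1.83 ± 1.14 with limma-voom on estimated reads (adjusted p = 0.775 and 0.747). With 1 library left out it ran from 0.28, without the dox library of line 700, to 1.28, without its untreated one.

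Hmox1, the inducible heme oxygenase (NCBIM37 chromosome 8, 77617490 to 77624495, plus strand), had pairs of opposite direction in the cultures. In BME R1 lines 700 and 889 read 31.0 and 68.1 FPKM without dox and 19.97 and 42.3 FPKM with dox, and the mock library read 19.0 FPKM against 24.7 FPKM untreated. On plastic lines 560, 700 and 889 read 47.5, 40.7 and 96.3 FPKM untreated and 61.6, 67.7 and 316 FPKM with dox. All BME R1 pairs, the mock pair included, were lower when treated, by 0.61 and 0.68 on the log2 scale in the dox pairs and 0.36 in the mock pair. The plastic pairs were higher by 0.37, 0.72 and 1.71. The arms overlapped in both cultures, since the untreated level differed between lines by 1.43 in BME R1 and 1.22 on plastic.

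The limma change of Hmox1 was −0.12 ± 0.54 in BME R1 (adjusted p = 0.993) and 0.93 ± 0.68 on plastic (adjusted p = 0.789). Their difference was 1.05 ± 0.95 (adjusted p = 0.9999). With the organoid line as a replicate block, which removes the level of each line, the BME R1 change was −0.64 ± 0.16 (adjusted p = 0.671) and the difference 1.58 ± 0.40 (unadjusted p = 0.00524, adjusted p = 0.855), so no call was made by limma in that fit either. Without the dox library of line 889, and with its untreated partner kept, the plastic change was 0.17, while the pairs of lines 560 and 700 were higher on their own and the blocked plastic change was 0.93 ± 0.31 (adjusted p = 0.3105, limma). That library also had the highest level of Cd68, a lysosomal protein of macrophages, at 38.7 FPKM against 2.70 FPKM in its untreated partner. In the other 10 libraries Cd68 lay between 3.58 and 16.2 FPKM. Of the other leukocyte markers, Cd14 read 10.9 to 36.8 FPKM over the 12 libraries, with 25.7 FPKM in that library and 19.8 FPKM in its untreated partner. Csf1r was lower there, at 0.470 FPKM against 0.860 FPKM, and was lower with dox in the other plastic pairs too, and Lyz2 was listed at 0 in both libraries of that pair. Ptprc did not exceed 0.0958 FPKM in any library and Adgre1 was listed at 0 in all. The summed level of the 8 leukocyte markers ran from 34.7 to 43.7 FPKM in BME R1 controls, 26.2 to 35.2 FPKM with dox, 23.4 to 42.9 FPKM on untreated plastic and 15.1 to 65.1 FPKM on plastic with dox. Their part in the Hmox1 values was not tested, and in bulk RNA a change in the share of a cell type and a change in RNA per cell cannot be told apart.

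**Figure D2:**
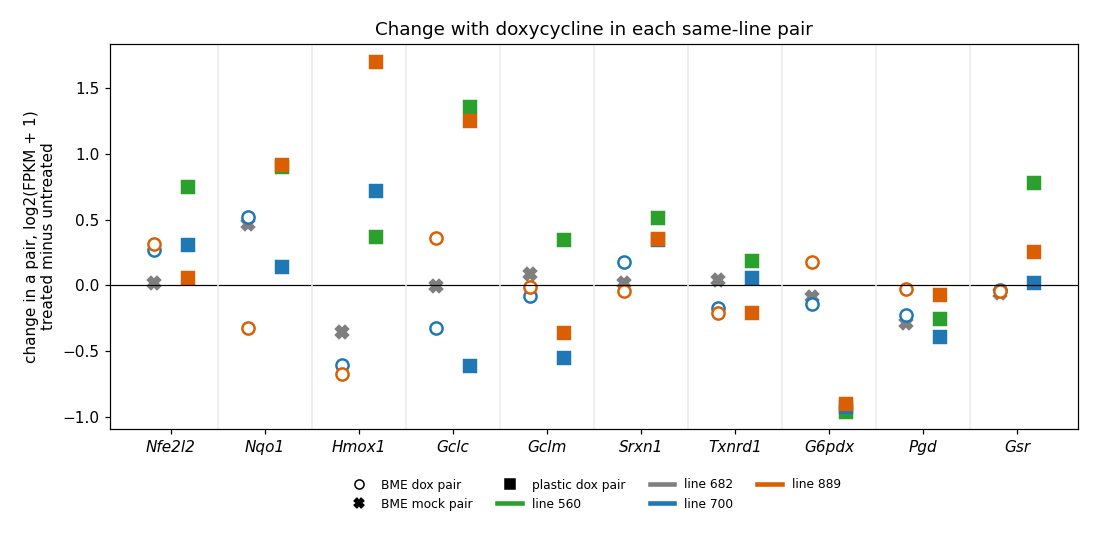
Change in log2(FPKM + 1), treated minus untreated, of each gene in each same-line pair (vertical axis), with open circles for BME R1 dox pairs, crosses for the BME R1 mock pair and squares for plastic pairs, coloured by line. The plastic pairs of G6pdx lie together between −0.96 and −0.90, whereas those of Gclc run from −0.61 to 1.36 and those of Hmox1 from 0.37 to 1.71.

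Gclc and Gclm encode the catalytic and modifier subunits of glutamate-cysteine ligase, which carries out the rate-limiting step of glutathione synthesis. In BME R1 Gclc read 144 and 30.9 FPKM in untreated lines 700 and 889, 115 and 39.9 FPKM with dox, and 61.4 and 61.1 FPKM in the untreated and mock libraries of line 682. On plastic it read 11.3, 27.2 and 16.6 FPKM in untreated lines 560, 700 and 889 and 30.5, 17.4 and 41.0 FPKM with dox. Lines 560 and 889 were therefore higher with dox on plastic, by 1.36 and 1.25, and line 700 was lower, by 0.61. Line 700 was also the lower and line 889 the higher of the dox pairs in BME R1. The limma change was 0.08 ± 0.66 in BME R1 and 0.67 ± 0.41 on plastic (adjusted p = 0.993 and 0.737).

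Gclm had smaller changes than Gclc in every dox pair. It ranged from 42.5 to 69.3 FPKM in BME R1, where the pair changes of lines 700 and 889 were −0.08 and −0.01. On plastic it read 25.1, 32.4 and 37.4 FPKM in untreated lines 560, 700 and 889 and 32.1, 21.8 and 28.8 FPKM with dox, higher in 1 pair and lower in 2. Both subunits were higher in line 560 and lower in line 700, and in line 889 Gclc was higher and Gclm lower. The limma change on plastic was −0.19 ± 0.24 (adjusted p = 0.883). The ratio of Gclc to Gclm within a library, which does not depend on how libraries were scaled, was 0.450, 0.839 and 0.445 in untreated plastic libraries of lines 560, 700 and 889. With dox it was 0.951, 0.7998 and 1.42. In BME R1 the ratio ran from 0.719 to 2.08 over all libraries, with the dox libraries inside the range of the controls.

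Srxn1, Txnrd1 and Gsr encode enzymes that return oxidized proteins or oxidized glutathione to use: sulfiredoxin repairs overoxidized peroxiredoxins, thioredoxin reductase reduces thioredoxin, and glutathione reductase restores glutathione, the latter pair with NADPH. Srxn1 read 12.01, 16.7 and 17.2 FPKM in untreated lines 560, 700 and 889 on plastic and 17.6, 21.5 and 22.3 FPKM with dox. All 3 pairs were higher, by 0.34 to 0.51, and the lowest dox library lay above the highest untreated one. In BME R1 lines 700 and 889 read 20.8 and 25.3 FPKM untreated and 23.7 and 24.6 FPKM with dox. Line 682 was near 12 FPKM in both of its libraries, and with both of these counted as controls the fitted BME R1 change of 0.50 ± 0.32 was larger than either dox pair, 0.18 and −0.04. The adjusted p was 0.959 in BME R1 and 0.676 on plastic, where the limma change was 0.40 ± 0.22. With lines as the block, the BME R1 change was 0.07, and the difference between the cultures turned from −0.09 to 0.33 (adjusted p = 0.940).

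Gsr was higher in all 3 plastic pairs, but by very different amounts. It read 49.7, 63.5 and 77.2 FPKM in untreated lines 560, 700 and 889 and 86.1, 64.3 and 92.1 FPKM with dox, with changes of 0.78, 0.02 and 0.25. The BME R1 levels were 56.4 and 82.3 FPKM in untreated lines 700 and 889 and 54.9 and 79.8 FPKM with dox, 0.04 and 0.05 lower on the log2 scale. These BME R1 differences were of the size of the mock pair, 0.06 lower. The limma change was 0.19 ± 0.27 in BME R1 and 0.35 ± 0.24 on plastic (adjusted p = 0.965 and 0.774).

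Txnrd1 had pairs of both signs on plastic. It read 46.7, 76.0 and 72.0 FPKM in untreated lines 560, 700 and 889 and 53.3, 79.2 and 62.0 FPKM with dox, higher in 2 pairs and lower in 1. In BME R1 it was lower with dox in both pairs, by 0.17 and 0.21, with 92.1 FPKM untreated and 81.6 FPKM treated in line 700, and 75.5 and 64.9 FPKM in line 889. The limma change was −0.04 ± 0.19 in BME R1 and 0.01 ± 0.26 on plastic (adjusted p = 0.993 and 0.994).

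The NADPH genes G6pdx and Pgd were lower with dox in every plastic pair. In the annotation of NCBIM37, the assembly also called mm9, G6pdx lies on the minus strand of chromosome X from 71654822 to 71674533, and Pgd on the minus strand of chromosome 4 from 148524100 to 148540880. An intronless copy of G6pdx, G6pd2, was listed at 0 in 10 of 12 libraries and did not exceed 0.0316 FPKM in the others. G6pdx read 168, 193 and 173 FPKM in untreated lines 560, 700 and 889 on plastic and 86.0, 101 and 92.0 FPKM with dox, with changes of −0.96, −0.93 and −0.90. The arms were far apart, and the range between lines, 0.20, was small beside the change. In BME R1 lines 700 and 889 read 97.6 and 87.3 FPKM untreated and 88.3 and 99.0 FPKM with dox. The untreated and mock libraries of line 682 read 95.1 and 89.5 FPKM. The BME R1 pairs pointed in opposite directions, −0.14 in line 700 and 0.18 in line 889, and the mock pair gave −0.09.

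The limma change of G6pdx was 0.02 ± 0.13 in BME R1 (adjusted p = 0.993) and −0.93 ± 0.18 on plastic (unadjusted p = 0.00139, adjusted p = 0.230, rank 74 of 12333 genes). The difference between the cultures, tested in 1 fit over the 12 libraries, was −0.95 ± 0.19. Its unadjusted p of 0.0005 was the lowest of the 11977 genes tested, and after adjustment over all of them p was 0.9999 by limma. At an unadjusted p under 0.05, G6pdx was the 1 member on plastic, where 8.29% of all genes reached that threshold, 4.56% higher and 3.73% lower with dox. It was also the 1 member in the difference, where 2.53% did, 1.3% above 0 and 1.23% below. No member reached it in BME R1, where 4.09% of genes did, 2.62% higher and 1.47% lower. With the organoid line as a replicate block more members reached that threshold and none was called. Hmox1 was lower in BME R1, as were 3.03% of genes (limma adjusted p = 0.671). On plastic Nqo1 and Hmox1 were higher, as were 7.44% of genes (limma adjusted p = 0.351 and 0.3105), and G6pdx was again lower, as were 6.05% (limma adjusted p = 0.181). In the difference, Hmox1 was higher (2.96% of genes were) and G6pdx lower (2.45% were), with G6pdx at rank 35 and an unadjusted p of 0.00245 (limma adjusted p = 0.765). Every plastic pair of G6pdx lay below every BME R1 dox pair, as for 9.61% of all genes. Over the alternative settings the plastic change ranged from −0.99 to −0.87 and the difference from −1.03 to −0.87, with limma adjusted p from 0.1665 to 0.879 and from 0.1454 to 1.0.

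The Smad4 values differed between the cultures beside this result. Smad4 with dox was 6.08 to 47.8 times its untreated partner on plastic and 2.64 and 4.38 times in BME R1, and the difference of the limma changes was 2.05 ± 0.68 (adjusted p = 0.9999). By line, G6pdx changes of −0.14 and 0.18 in BME R1 stood beside Smad4 levels with dox of 17.2 and 27.3 FPKM in lines 700 and 889. On plastic, changes of −0.96, −0.93 and −0.90 stood beside Smad4 levels of 73.6, 18.1 and 48.9 FPKM in lines 560, 700 and 889. The Smad4 levels with dox thus overlapped between the separately normalized tables, while the folds over the untreated partner did not, and the part of the Smad4 amount in the G6pdx values was not tested. All 10 listed proliferation genes had a limma change below 0 in either culture, where 49% of all genes were above 0 in BME R1 and 51.1% on plastic, with a median of −0.72 in BME R1 and −1.05 on plastic. None was called, and 1 and 4 of them had an unadjusted p under 0.05, where 1.47% and 3.73% of all genes were lower at that p. By pair, the median over this list was −0.99 in line 700 and −0.03 in line 889 in BME R1, and −0.36, −1.20 and −1.40 in lines 560, 700 and 889 on plastic. The part of proliferation in the G6pdx values was not tested.

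Pgd, 6-phosphogluconate dehydrogenase, makes the second NADPH of the same pathway. On plastic it read 186, 228 and 181 FPKM in untreated lines 560, 700 and 889 and 156, 173 and 172 FPKM with dox. All dox libraries lay below all untreated ones, with smaller changes than G6pdx, −0.25, −0.39 and −0.08. The BME R1 levels were 168 and 181 FPKM in untreated lines 700 and 889 and 143 and 178 FPKM with dox, and the mock library, at 136 FPKM against 166 FPKM untreated, was the lowest of the 6. The limma change was −0.02 ± 0.17 in BME R1 and −0.24 ± 0.19 on plastic (adjusted p = 0.993 and 0.805).

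The ratio of G6pdx to Pgd within a library set the untreated plastic libraries apart. It was 0.902 ± 0.0533 without dox (n = 3, range 0.848 to 0.954) and 0.556 ± 0.0239 with dox (n = 3, range 0.535 to 0.582). In BME R1 it was 0.573 ± 0.0717 in the controls (n = 4, range 0.482 to 0.657) and 0.557 and 0.616 in the dox libraries. The dox libraries on plastic thus had a ratio inside the BME R1 control range, and the 3 untreated plastic libraries lay above all the other 9.

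**Figure D3:**
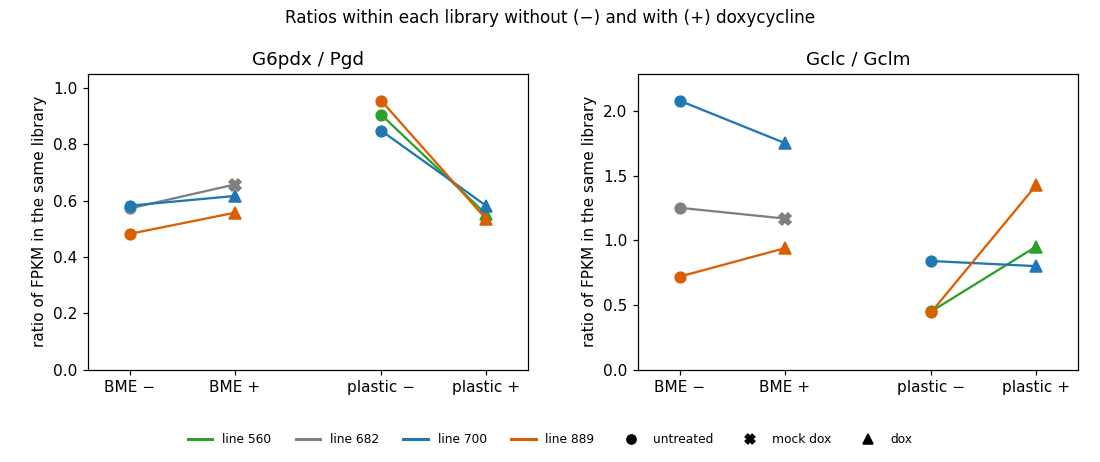
Ratio of FPKM values within the same library for G6pdx over Pgd (left) and Gclc over Gclm (right), without (−) and with (+) doxycycline; each line joins the libraries of 1 organoid line and the cross is the mock library. The G6pdx to Pgd ratio is 0.848 to 0.954 in untreated plastic libraries and 0.482 to 0.657 in all others, while the Gclc to Gclm ratio shows no common direction across lines.

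As a group, the 10 genes had a median change of 0.01 in BME R1, beside −0.01 over all genes tested, and of 0.36 on plastic, beside 0.01. The plastic median was 0.17 without the untreated library of line 560 and 0.21 without the dox library of line 889, and 0.16 in lines 700 and 889 alone. On plastic 5 members were higher in every pair (Nfe2l2, Nqo1, Hmox1, Srxn1 and Gsr, where 18.6% of all genes were) and 2 were lower in every pair (G6pdx and Pgd, where 18.7% were). The plastic arms did not overlap for 2 members that were higher with dox, Nfe2l2 and Srxn1, where 7.87% of genes behaved so, and for 2 that were lower, G6pdx and Pgd, where 7.26% did. In BME R1 the 1 member higher in both dox pairs was Nfe2l2, and 5 were lower in both (Hmox1, Gclm, Txnrd1, Pgd and Gsr), against 29.5% of all genes. No member had separate arms in BME R1, where 6.33% and 5.83% of genes did. By pair, the median over the members was 0.44 in line 560, 0.04 in line 700 and 0.15 in line 889 on plastic, highest in line 560. In BME R1 it was −0.11 and −0.03 in lines 700 and 889, with 7 of 10 members lower in each, and 0.00 in the mock pair. The dox change on plastic was above that in BME R1 in every pair of pairs for Hmox1, Srxn1 and Gsr, as for 11.7% of genes.

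The members did not share 1 pattern over the libraries. Over the 12 libraries, centred within each table, 27 of the 45 pairs of members had a Pearson r above 0 and 18 below, with a median of 0.07. The highest were Hmox1 with Gsr, 0.772, Srxn1 with Gsr, 0.743, Nqo1 with Gclc, 0.722, and Gclc with Gclm, 0.699, and the lowest was Nqo1 with Gsr, −0.517. G6pdx and Pgd had an r of 0.643. With the mean of all 10 members, each gene itself included, G6pdx had an r of −0.03, and Txnrd1 was closest to that mean at 0.80. The r of G6pdx with single members went both ways, from −0.466 with Nfe2l2 to the 0.643 with Pgd. These libraries share lines and treatments, so the correlations are descriptions. Among 11967 other genes, Bmt2 (r = 0.963), Capza1 (0.912), Ube2v2 (0.909), Esyt2 (0.904) and Egfr (0.902) were most like the mean of the standardized members over these 12 libraries.

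Of the other genes of these pathways, 94 were listed, of which 85 were tested in BME R1 and 84 on plastic and in the difference. None was called in any of the 3 comparisons. At an unadjusted p under 0.05, 4 were higher and 1 lower in BME R1, 4 higher and 6 lower on plastic, and 1 higher and 4 lower in the difference, where 4.09%, 8.29% and 2.53% of all genes passed it in either direction. The genes named from here on were chosen after their values were seen, for that p or, in the case of Keap1, Bach1, Pgls, Me1 and Ftl1, for their role. None of the 10 NRF2 regulators was among them, and Keap1, the repressor of NRF2, differed by 0.08 ± 0.18 in BME R1 and 0.03 ± 0.24 on plastic. Bach1, which competes with NRF2 at antioxidant response elements, differed by −0.04 ± 0.46 and 0.66 ± 0.47.

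In the NADPH and pentose phosphate list of 17 further genes, 11 were lower and 6 higher with dox on plastic, with a median change of −0.24, and 9 were lower and 8 higher in BME R1, with a median of −0.05. Rpia (−0.56 ± 0.22) and Tkt (−0.51 ± 0.21), enzymes of the non-oxidative pentose phosphate pathway, and Mthfd2 (−0.62 ± 0.24), of mitochondrial folate metabolism, had an unadjusted p under 0.05 on plastic, with limma adjusted p of 0.587, 0.599 and 0.583. The difference between the cultures was below 0 for 14 of the 17, where 51.4% of all genes were above 0, with a median of −0.23 beside 0.01 over all genes. By pair on plastic, 9 of the 17 were lower in line 560 (median −0.08), 13 in line 700 (−0.35) and 11 in line 889 (−0.17). Pgls, the enzyme between G6PDX and PGD, differed by −0.30 ± 0.41 on plastic, and Me1, a malic enzyme that also makes NADPH, by −0.15 ± 0.43.

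**Figure D4:**
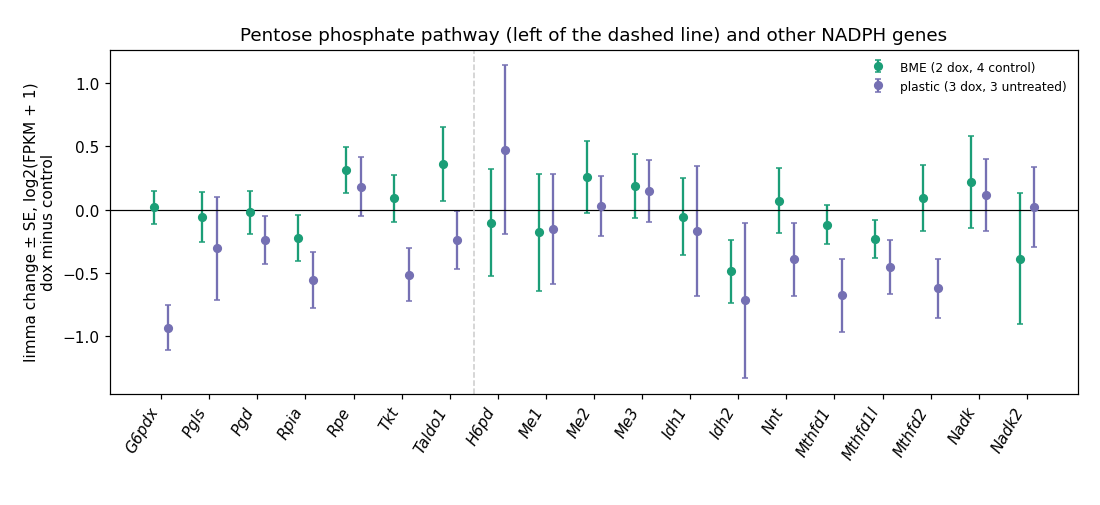
Change with dox in log2(FPKM + 1) with its standard error from limma (vertical axis) for G6pdx, Pgd and the 17 further NADPH genes, in BME R1 (green) and on plastic (purple). G6pdx on plastic, −0.93 ± 0.18, lies lowest, and its BME R1 value is 0.02 ± 0.13.

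In the glutathione list, 10 genes were tested, of which 8 were higher and 2 lower in BME R1 (median 0.17) and 3 higher and 7 lower on plastic (median −0.02). In the thioredoxin and peroxiredoxin list of 12, 7 were higher and 5 lower in BME R1 (median 0.02) and 5 higher and 7 lower on plastic (median −0.06). Among the thiol peroxidases, Prdx5, a peroxiredoxin, had a change of 0.79 ± 0.30 in BME R1 and 1.08 ± 0.39 on plastic, and Prdx6 one of −0.11 ± 0.22 and −0.70 ± 0.22. Glrx2, a mitochondrial glutaredoxin, differed by 0.46 ± 0.17 and 0.52 ± 0.21, and Gss, which completes glutathione, by 0.24 ± 0.17 and 0.58 ± 0.22. In BME R1 Prdx1 (0.60 ± 0.18) and Slc3a2, the partner chain of the cystine carrier (0.50 ± 0.19), were also past the unadjusted threshold, and on plastic they differed by 0.50 ± 0.29 and −0.01 ± 0.30. On plastic Prdx5 was higher with dox in lines 700 and 889 and not in line 560, where it read 349 FPKM with dox and 359 FPKM without. In limma these genes had adjusted p of 0.959 in BME R1 where they passed it, and 0.521 to 0.589 on plastic.

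In the quinone and carbonyl detoxification list, 17 genes were tested on plastic, 7 higher and 10 lower, with a median of −0.01. Ephx1, an epoxide hydrolase, had the largest change of the pathway genes on plastic at an unadjusted p under 0.05, −1.66 ± 0.39 (adjusted p = 0.346, limma), against −0.26 ± 0.42 in BME R1. Aldh1a1, a retinal and aldehyde dehydrogenase, differed by 0.71 ± 0.45 in BME R1 and −0.88 ± 0.33 on plastic, a difference between the cultures of −1.59 ± 0.59 (adjusted p = 1.0, limma). Abcc4, an exporter of conjugates, differed by 1.05 ± 0.36 on plastic. The heme and iron list had a median change of 0.16 on plastic, 5 of 9 higher, with the ferritin light chain Ftl1 at 0.69 ± 0.39. Catalase, Cat, differed by 0.18 ± 0.16 in BME R1 and −0.42 ± 0.20 on plastic. Of the NADPH oxidase list, which consumes NADPH to make superoxide or peroxide, 6 genes were tested, and 6 of 6 had a fitted change above 0 on plastic, where 51.1% of all genes did, with a median of 0.52 and none past the unadjusted threshold. By pair, 3 of 6 were higher in line 560, 2 of 6 in line 700 and 6 of 6 in line 889. Duoxa2, the maturation factor of the oxidase DUOX2, differed by −1.36 ± 0.40 in BME R1 and 1.39 ± 0.82 on plastic, a difference of 2.75 ± 1.02 (adjusted p = 1.0, limma). Its plastic pairs disagreed. Untreated lines 560, 700 and 889 read 1.11, 0.894 and 0.0646 FPKM, and with dox they read 13.7, 0.438 and 2.60 FPKM.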

How the data were processed

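RNA-Seq values of 12 libraries were read from 2 tables of FPKM. The authors deposited the FPKM after kallisto pseudo-alignment and DESeq2 normalization, with mm9 as the build in the submitters' notes, and the deposited tables for BME R1 and plastic were normalized separately. The authors' tables of dox against no dox, which hold their own fold changes and p-values, were not used. Median-of-ratios factors recomputed here were equal within each table. Gene positions came from the GENCODE annotation of NCBIM37 and promoters from RefSeq (GRCm38.p6). No library came with a depth, so depth was estimated from steps in the FPKM.

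Genes with a mean of at least 0.5 FPKM in a table were tested on log2(FPKM + 1) with limma 3.58.1 in R 4.3.3 (moderated test, Benjamini-Hochberg over all genes, two-sided). BME R1 compared 2 dox with 4 control libraries, the mock library included, and plastic 3 with 3. A fit over the 12 libraries, on genes tested in both, gave the difference of the dox changes. The fit was also run on simulated data with independent libraries, less noise than here and larger changes than those of the members. That setting was easier than these data, so it does not show what the fit can detect here. P-values measure only the spread between these samples, whose lines 700 and 889 are in both tables. Same-line libraries deviated together (r of deviations from group means 0.176 to 0.66 in BME R1 and 0.247 to 0.612 on plastic), and because each number marks 1 line the numbers were taken as pairs, with the line as a block in an alternative. The members, the pathway lists and the tests were chosen with earlier results of these data known. The genes named were the 10 members, Smad4, any listed gene called, and the 5 genes most like the mean of the members; other pathway genes, Cd68, Cd14, Csf1r, Lyz2, Ptprc, Adgre1 and G6pd2 were named after their values were seen. Alternatives changed the pseudocount to 0.1, dropped the filter, rescaled by median-of-ratios factors or to total reads, and used limma-voom on estimated reads. Others used the line as a block, moved or left out the mock library, kept lines 700 and 889 alone, and left out each library.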

Additional observations from a re-analysis of the deposited data

Results flagged for a closer look

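For Hmox1 and Gsr both BME R1 dox pairs were lower than their untreated partner and all 3 plastic pairs were higher. For Gsr the BME R1 pairs, −0.04 and −0.05, were of the size of the mock pair, −0.06, the plastic pair of line 700 was 0.02, and the fitted changes were both above 0, 0.19 in BME R1 and 0.35 on plastic. The dox change on plastic minus that in BME R1 was 1.048 for Hmox1 and 0.158 for Gsr on the log2(FPKM + 1) scale, with a limma adjusted p of 0.9999 for each. With 1 library left out, the differences ranged from 0.29 to 1.57 for Hmox1 and from −0.11 to 0.42 for Gsr. Among the 10 BME R1 control groups of 4 libraries, 1 for each gene, no single library stood apart by Dixon's test, where chance gives 0.5.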

How the results depend on the processing

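No member was called under any setting. In the main fits the members' changes lay between −0.22 and 0.50 in BME R1 and between −0.93 and 0.93 on plastic. The cut-off of a change over 1 thus prevented a call there whatever the p. The plastic change of G6pdx stayed between −0.99 and −0.87, so it could not be called in any setting. Of 490 values of the 10 genes under alternatives, 439 kept their direction and 51 reversed, none of them called; all alternatives of G6pdx, Pgd, Hmox1, Nqo1, Gclc, Gclm, Srxn1, Nfe2l2 and Gsr on plastic kept their direction, though not their size. With 2 dox libraries in BME R1, the depth and number of libraries limit what small changes can show, and Nqo1 is limited by low reads.

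The line as a replicate block turned the BME R1 changes of Nqo1 to 0.10, Gclm to −0.048 and Gsr to −0.041 and the Srxn1 difference to 0.33, and changed no member's call; lines 700 and 889 alone gave the same BME R1 values, with differences of 0.28 for Srxn1 and −0.11 for Nfe2l2 and a plastic Txnrd1 change of −0.077. Rescaling to total reads, chosen after seeing the data, gave −0.069 for Gclm and −0.054 for G6pdx in BME R1, −0.0345 for Txnrd1 on plastic, and moved the members' BME R1 median to −0.062. Counting the mock library with dox gave BME R1 changes of 0.22 for Nqo1, −0.0023 for Gclm, −0.016 for G6pdx and −0.046 for Gsr and a Srxn1 difference of 0.35, and leaving it out gave 0.047. The causes were not tested.

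Leaving out 1 library at a time (without a BME R1 dox library that arm is 1 sample, assumed to vary like the controls) gave a members' BME R1 median of 0.0029 to 0.12 and these BME R1 ranges: G6pdx −0.063 to 0.10, Gclc −0.67 to 0.83, Gclm −0.30 to 0.31, Gsr −0.073 to 0.46, Hmox1 −0.64 to 0.41, Nqo1 −1.96 to 1.52, Pgd −0.18 to 0.13 and Txnrd1 −0.20 to 0.13. Also in BME R1, Nfe2l2 ranged from 0.069, without dox line 889, to 0.30, without dox line 700. Srxn1 ranged from 0.35 to 0.68 there. On plastic the members' median ranged from 0.17 to 0.41, Txnrd1 from −0.21 to 0.14, Nfe2l2 from 0.15 (without untreated line 560) to 0.50, Nqo1 from 0.28 to 1.28, Hmox1 from 0.17 to 1.34, Gclc from 0.38 (without untreated line 560) to 0.99, Gclm from −0.34 to −0.038 (without dox line 700), Srxn1 from 0.25 to 0.50, G6pdx from −0.99 to −0.87, Pgd from −0.30 to −0.14 and Gsr from 0.19 (without untreated line 560) to 0.51. The differences ranged from −0.16 to 1.34 for Gclc, −0.50 to 0.11 for Gclm, −0.11 to 0.42 for Gsr, −0.038 to 0.32 for Nfe2l2, −0.87 to 2.61 for Nqo1, −0.28 to 0.052 for Srxn1, −0.17 to 0.21 for Txnrd1, 0.29 to 1.57 for Hmox1, −0.375 to −0.065 for Pgd and −1.03 to −0.87 for G6pdx.

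Over all genes, the 3 calls in BME R1 became 1 with a pseudocount of 0.1 or limma-voom and 0 with the block, without or with the mock library moved and in lines 700 and 889 alone, and 0 to 37 with 1 library left out, the most without the dox library of line 700, when the dox arm is 1 sample. The 4 calls on plastic became 10 with a pseudocount of 0.1, 7 with the block, 0 without the filter, with limma-voom or in lines 700 and 889 alone, and 0 to 55 with 1 library left out, the most without the dox library of line 700. The difference had 0 calls (303 genes at an unadjusted p under 0.05) and 5 without the filter.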
